A study of Mus musculus with 6 samples.

Results

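The genes described here are 42 genes of mitochondrial and peroxisomal fatty acid oxidation, listed by name, in pancreatic islets of pregnant and non-pregnant mice. Where several probe sets carry a gene's symbol alone in the platform annotation, the brightest of them on average over the 6 arrays stands for the gene. All 42 were found among 18193 genes with a single symbol, and 41 of them were bright enough to be tested, of 12914 genes tested in all. The gene left out, Ppara, is given by its values only.

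Islets are the endocrine part of the pancreas, made mainly of insulin-secreting beta cells, and were isolated here with collagenase from mouse pancreas. The 3 arrays of the non-pregnant group came from islets at 0 days post coitum (dpc), and the 3 arrays of the pregnant group from islets at 12.5 dpc. The labels give no strain, age, number of animals or treatment for either group, nor whether each array holds islets of a different animal. All p-values therefore reflect only how far these arrays scatter, a scatter that could be technical. The study looked for factors behind islet proliferation in pregnancy.

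Fatty acids are burnt by beta-oxidation, a cycle of oxidation, hydration, a further oxidation and thiolysis that shortens the chain and releases acetyl-CoA. Mitochondria import activated long-chain fatty acids through the carnitine shuttle, whose outer enzyme is CPT1, and pass the electrons to the respiratory chain through the electron transfer flavoprotein. Peroxisomes carry out a related cycle on very long, branched and dicarboxylic chains, with the multifunctional enzymes encoded by Ehhadh and Hsd17b4, and nuclear receptors of the PPAR family induce many of these genes in liver. In beta cells the pathway is known for its link to insulin secretion, since loss of the short-chain enzyme HADH causes excess insulin release.

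The promoters of 3 genes named in the results are shown, and whether they bear on the expression values was not tested. Ehhadh had the largest difference between the groups among the members, Cpt1a encodes the entry enzyme and was lower in pregnancy, and Hadhb shares its promoter with Hadha. The sequences are from RefSeq (GRCm38.p6) and hold 250 bases before and 50 after the annotated start, written 5′ to 3′ on the strand of the gene. Capitals mark matches to the nuclear receptor hexamer AGGTCA (on either strand) or to the STAT-binding GAS element TTCNNNGAA, a motif that reads the same on both strands and was chosen after the values were seen.
Ehhadh, chr16:21787785-21788084, minus strand: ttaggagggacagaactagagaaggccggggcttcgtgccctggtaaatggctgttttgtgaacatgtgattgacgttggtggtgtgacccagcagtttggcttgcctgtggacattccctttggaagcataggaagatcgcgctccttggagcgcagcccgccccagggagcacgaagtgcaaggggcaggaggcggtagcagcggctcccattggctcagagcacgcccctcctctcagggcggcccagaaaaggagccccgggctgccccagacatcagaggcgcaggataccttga
Cpt1a, chr19:3323051-3323350, plus strand: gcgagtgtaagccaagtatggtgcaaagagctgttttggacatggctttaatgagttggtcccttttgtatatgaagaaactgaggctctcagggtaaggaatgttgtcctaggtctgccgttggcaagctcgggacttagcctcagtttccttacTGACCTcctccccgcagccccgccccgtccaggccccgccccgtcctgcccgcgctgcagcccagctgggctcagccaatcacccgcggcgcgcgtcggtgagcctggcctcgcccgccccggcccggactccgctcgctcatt
Hadhb, chr5:30155003-30155302, plus strand: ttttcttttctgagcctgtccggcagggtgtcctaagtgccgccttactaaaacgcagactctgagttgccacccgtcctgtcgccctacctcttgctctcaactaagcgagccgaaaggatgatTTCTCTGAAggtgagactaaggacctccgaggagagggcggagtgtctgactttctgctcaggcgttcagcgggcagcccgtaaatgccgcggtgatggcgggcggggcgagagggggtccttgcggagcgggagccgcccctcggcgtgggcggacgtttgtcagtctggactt

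The Ehhadh window held neither motif. In the Cpt1a window the hexamer lay on the minus strand, at bases -94 to -89 from the start, and in the Hadhb window the GAS element lay at bases -125 to -117. The Hadha window, on the opposite strand, overlaps that of Hadhb by 228 bases, so the pair lies head to head and the same GAS match counts for both. Of the members, 35 had a promoter in the RefSeq table, with 40 windows in all. The hexamer was present in 20% of these 40 windows and in 16.3% of all 32851 windows, the GAS element in 7.5% and 8.3%, and the direct repeat of the hexamer spaced by 1 base in 0 of the 40 and in 0.0396% of all windows. The hexamer also lies within that direct repeat. These are matches of letters and say nothing about binding.

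Expression was read as the MAS5 signal, a background-corrected intensity on a linear scale that the authors had scaled to 1 trimmed mean, 500.003 on every array. The median signal of an array lay between 86.1 and 100.3, and controls for a bacterial transcript gave signals of 1.1 to 32.3. The beta actin controls, whose 3′ to 5′ ratio grows as RNA degrades, stood at 1.56 to 1.63 on the non-pregnant arrays against 1.63 to 1.66 on the pregnant ones, without overlap. The Gapdh ratio overlapped (0.669 to 0.711 and 0.687 to 0.725), and the part of RNA quality in the results was not tested. Markers of acinar cells, the exocrine cells around islets, moved with the groups: 12 of the 15 tested fell and 1 rose, and the summed signal of the 16 markers on the array ran from 146701 to 284160 on the non-pregnant arrays and from 85186 to 137717 on the pregnant ones, with none of them listed at 0. Of 8 beta cell markers 2 fell and 0 rose, and their summed signal was 166724 to 177298 and 169952 to 172601. Of 7 stellate cell and fibroblast markers 3 fell, with sums of 7194 to 7301 and 3556.3 to 5128.5, without overlap. Of 4 alpha cell markers Irx1 fell, with sums of 96281.9 to 100634 and 90336 to 94595, and of 3 duct cell markers Krt7 fell, with sums of 5469.6 to 5888.6 and 4645 to 5059, neither sum overlapping. The call of Irx1 was lost with quantile normalization. With median centring the calls of Irx1 and Krt7 were lost, as were those of the 2 beta cell markers. Of 7 endothelial markers Flt1 fell, with overlapping sums of 6955 to 7892 and 6392 to 7009.9. The part of these cell types in the results was not tested. In such bulk samples, fewer cells of a type and less RNA per cell cannot be told apart.

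Most genes of the pathway did not pass the test, and Ehhadh stood far apart from them. A gene was called changed at a limma adjusted p under 0.05. By this rule 2 members rose, Ehhadh and Pparg, and 4 fell, Cpt1a, Eci2, Pex11a and Abcd3, out of 41 tested. The 2 risers are 4.88% of the members, where 6.10% of all genes tested rose, and the 4 that fell are 9.76%, where 5.79% of all genes fell. Together 14.6% of the members changed, against 11.9% of all genes, so the share that changed was near the background. At the level of probe sets, 9.57% of 27022 were called, 1294 higher (4.79%) and 1293 lower (4.78%), or 1430 higher and 583 lower with each array centred on its median. At an unadjusted p under 0.05, limma had 13 of the 41 members, each by its brightest probe set. Over all probe sets the share was 22.9%, and the share over genes was not computed.

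The median log2 difference of the members (pregnant minus non-pregnant, on the log2(signal + 16) scale) was -0.0028, and -0.036 over all genes tested. Its sign depended on the scaling: 20 of the 41 differences were positive, 18 with quantile normalization (median -0.03) and 26 with each array centred on its median (0.07). In the main setting 51.2% of the members and 56.5% of all genes tested had a negative difference. With each array's median acinar marker level as a covariate, 14 were positive and the median was -0.09. Signals of the groups did not overlap in 5 members higher (12.2%, against 13.9% of all genes) and 6 lower (14.6%, against 17.9%) in pregnancy. Over all probe sets they did not overlap in 27.7%, with 11.6% higher and 16.1% lower.

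The 35 members that did not pass had log2 differences between -0.41 and 0.45. For 26 of them the 95% interval lay inside ±0.5, and for 14 inside ±0.3, limits that were chosen after the values were seen. These 14 were Acad9, Hadha, Hadhb, Echs1, Hadh, Acat1, Eci1, Decr2, Etfa, Etfdh, Acaa1a, Scp2, Phyh and Pex13. The list holds for the brightest probe set of each gene and not for every probe set. Another of Acad9 had -0.31 ± 0.11, another of Pex13 -0.52 ± 0.22 (limma adjusted p = 0.12 and 0.17), and another of Scp2 was called higher. The intervals rest on 3 arrays a group.

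**Figure D1:**
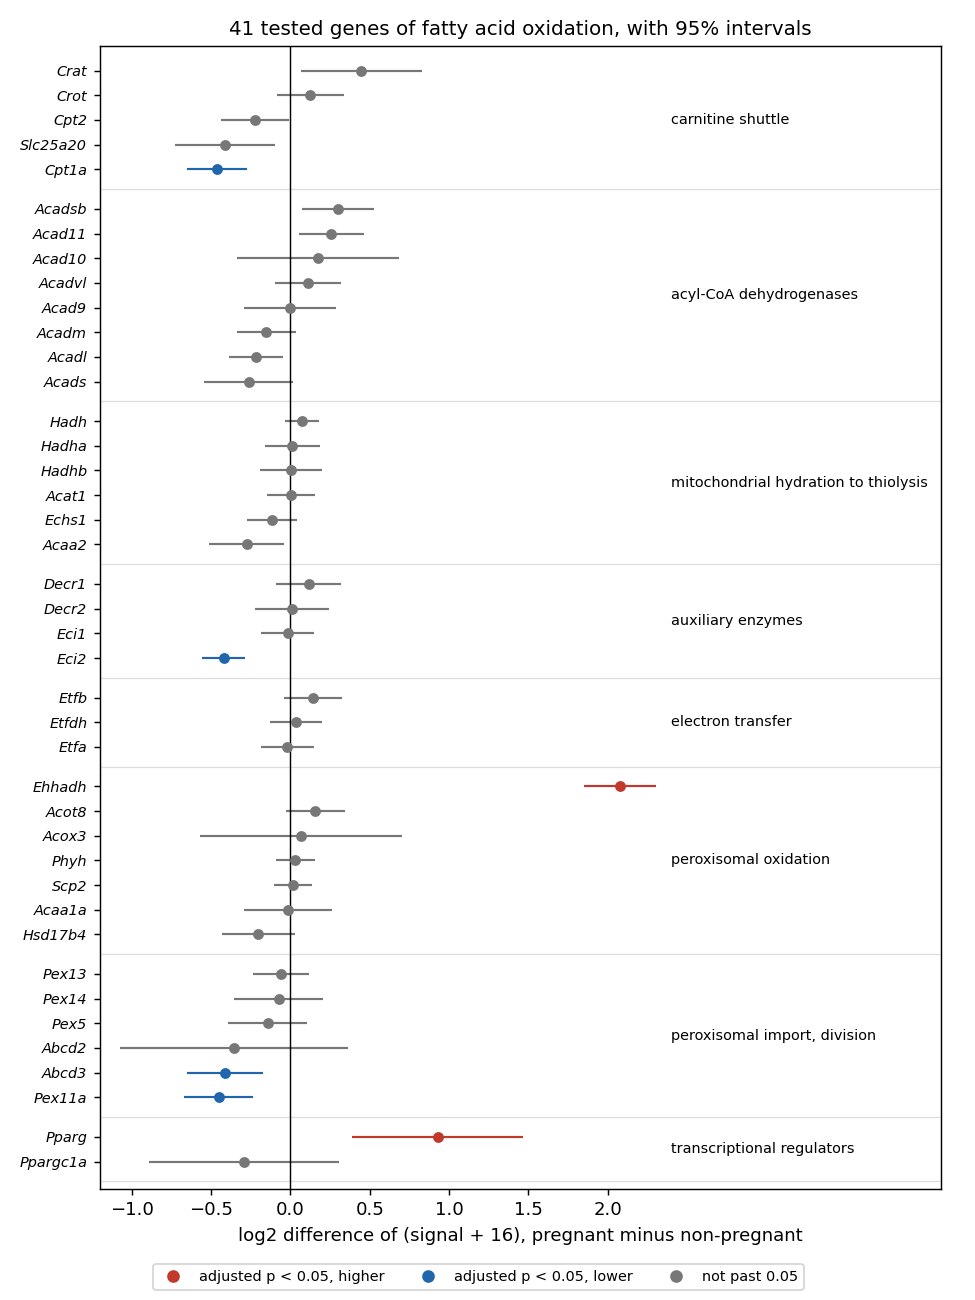
Log2 difference between pregnant and non-pregnant islets (x axis, log2 of signal + 16) for the 41 tested genes, grouped by role (y axis); points are limma estimates from 3 arrays a group and bars are 95% intervals. Ehhadh, at 2.08, is apart from the other 40 genes, whose estimates run from -0.46 to 0.93.

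Ehhadh encodes the peroxisomal bifunctional enzyme, which hydrates the enoyl-CoA and oxidises the resulting hydroxyacyl-CoA. Its signal was 440.6, 432.4 and 367.8 on the non-pregnant arrays and 1711.5, 1974.7 and 1693.9 on the pregnant arrays. All 3 pregnant arrays were far above all 3 non-pregnant ones, and the spread within each group was small beside the gap. The means were 413.6 ± 39.9 and 1793 ± 157 (SD, n = 3 each), a ratio of 4.34. The log2 difference was 2.08 ± 0.10 (SE; 95% interval 1.85 to 2.30; limma adjusted p = 2.6e-07), which ranked 21 from the top among 12914 genes. It was the 1 member with an absolute log2 difference of at least 1.

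Against the other 40 tested members, Ehhadh was set apart by the size of its difference. The lower bound of its interval, 1.85, lay above the highest upper bound among the others, the 1.47 of Pparg. The median log2 value of the other 40 was 10.16 to 10.21 on the non-pregnant arrays and 10.23 to 10.30 on the pregnant ones. The groups did not overlap in this per-array median, and its mean rose by 0.08. The median of the 40 log2 differences was -0.0081. The log2 value of Ehhadh less the per-array median of the others went up by 2.00 from the non-pregnant to the pregnant arrays, a description with no test. Ehhadh kept its call under all 17 alternatives, with log2 differences of 1.96 to 2.15 and adjusted p-values of 8.6e-08 to 0.0021. With the acinar marker level as a covariate it had 1.98 (limma adjusted p = 2.6e-04). The array has 1 probe set for Ehhadh, so no second probe set could be compared.

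The 5 genes whose log2 signals followed Ehhadh most closely over the 6 arrays, by Pearson correlation, were Gmnn (r = 0.999), Slc33a1, Racgap1 and Rpn1 (each 0.998) and Ivd (0.997). These are geminin, an inhibitor of replication licensing, the acetyl-CoA transporter of the endoplasmic reticulum, a protein of cytokinesis, an oligosaccharyltransferase subunit and isovaleryl-CoA dehydrogenase of leucine breakdown. The points are 2 groups of 3 arrays, and the correlations are given as a description, with no p. Of the 5, Ivd alone changed by as much as Ehhadh, from 1558.7 to 1859.5 in non-pregnant to 8176.7 to 9231.8 in pregnant islets (log2 difference 2.33 ± 0.08, limma adjusted p = 6.3e-09).

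**Figure D2:**
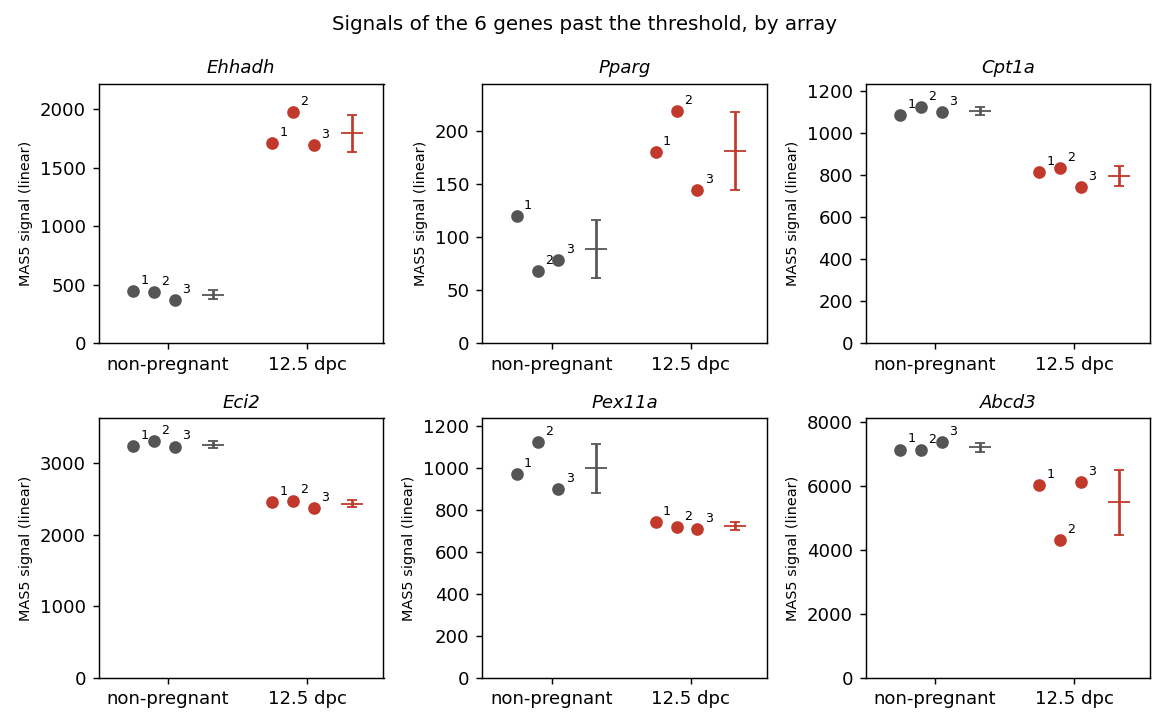
MAS5 signal (linear, y axis from 0) on each array for the 6 genes past the threshold; numbers are replicates and bars are mean ± SD of 3 arrays. Groups do not overlap in any of the 6, Ehhadh goes from a mean of 413.6 to 1793, and pregnant replicate 2 is the low array of Abcd3.

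Among the peroxisomal oxidation enzymes 1 of 7 rose, Ehhadh, and 0 fell. The counts of this and the following roles stand beside the 6.10% of all genes tested that rose and the 5.79% that fell. Hsd17b4 encodes the other multifunctional enzyme, which handles branched chains and bile acid precursors. It gave signals of 942.4, 998.4 and 1003.8 in non-pregnant and 884.2, 951 and 734.1 in pregnant islets. The groups overlapped, and the log2 difference of -0.20 ± 0.10 did not pass (95% interval -0.43 to 0.03; limma adjusted p = 0.28). The interval of Ehhadh lies wholly above it.

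The other peroxisomal enzymes did not pass. Acaa1a, a thiolase that completes the peroxisomal cycle, had a log2 difference of -0.01 (95% interval -0.29 to 0.26), and the sterol carrier and thiolase gene Scp2 had 0.02 (-0.10 to 0.13). Phyh, which starts the alpha-oxidation of phytanic acid, had 0.03 (-0.09 to 0.15). Acot8, a peroxisomal acyl-CoA thioesterase, had 0.16 (-0.03 to 0.34) with groups that did not overlap, and Acox3, an acyl-CoA oxidase of branched chains, was dim and imprecise at 0.07 (-0.57 to 0.70). Of the 4 probe sets of Scp2, another was higher in pregnancy on every array, at 5973.8 to 6127.9 against 7155.9 to 7336.9 (log2 difference 0.26 ± 0.05, limma adjusted p = 0.0080). The probe sets of this gene thus disagreed.

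Of 6 genes of peroxisomal import and division tested, 2 fell and 0 rose. All 6 log2 differences were negative (median -0.25), where 56.5% of all genes tested had a negative one. They were all negative with quantile normalization too, though with median centring 2 were positive and 1 gene fell. Pex11a encodes a membrane factor of peroxisome elongation and division that PPAR alpha induces in liver. Its signals were 968.6, 1123.2 and 899.3 in non-pregnant and 742.3, 716.3 and 706.2 in pregnant islets. Every pregnant array was below every non-pregnant one, and the pregnant arrays lay close together. The log2 difference was -0.45 ± 0.10 (limma adjusted p = 0.014), and the other probe set of the gene also fell (-0.42 ± 0.09, adjusted p = 0.010). The call was just lost without non-pregnant replicate 2 (-0.36, adjusted p = 0.057), pregnant replicate 2 (0.051) or pregnant replicate 3 (0.050).

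Abcd3 encodes PMP70, an abundant transporter of the peroxisomal membrane for branched and long-chain acyl-CoA. Signals of 7125, 7101.3 and 7345.5 in non-pregnant islets stood against 6012.5, 4298.4 and 6108.5 in pregnant islets. The groups did not overlap, and pregnant replicate 2 was well below the other pregnant arrays. The log2 difference of -0.41 ± 0.11 (limma adjusted p = 0.035) became -0.25 without that array (adjusted p = 0.049). The call was lost without non-pregnant replicate 1, 2 or 3 (adjusted p = 0.069, 0.076 and 0.090), with median centring (0.083), with robust eBayes (0.057) and with no filter (0.082).

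The related transporter Abcd2, for very long chains, disagreed between probe sets, and its brightest on average had -0.36 ± 0.33 (adjusted p = 0.58). Another Abcd2 probe set fell, from 97.5 to 124.6 in non-pregnant to 4.2 to 51.8 in pregnant islets (-1.58 ± 0.43, limma adjusted p = 0.039), and 2 more were too dim to test. The import machinery itself did not pass: Pex5, the receptor for the main peroxisomal targeting signal, had -0.14 (95% interval -0.39 to 0.11), and its docking partners Pex13 and Pex14 had -0.06 (-0.24 to 0.12) and -0.07 (-0.36 to 0.21). A dimmer probe set of Pex13 had -0.52 ± 0.22 (limma adjusted p = 0.17).

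In the carnitine shuttle 1 of 5 genes fell and 0 rose. Cpt1a encodes the liver-type carnitine palmitoyltransferase of the outer mitochondrial membrane, the main control point of the pathway, which malonyl-CoA inhibits. Its signals of 1086.4, 1124.9 and 1099.2 in non-pregnant islets were all above the 812.7, 834.1 and 741.8 of pregnant islets. The arrays of each group lay close together, and the gap between the groups was several times that spread. The mean was 1104 ± 19.6 in non-pregnant islets and 796.2 ± 48.3 in pregnancy (ratio 0.722), and the log2 difference -0.46 ± 0.09 (limma adjusted p = 0.0054). The other 2 probe sets of Cpt1a had -1.11 ± 0.18 (adjusted p = 0.0020) and -0.56 ± 0.20 (adjusted p = 0.12), and their mean with the first had -0.71. The call was kept without any 1 array, with adjusted p-values of up to 0.026.

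Downstream of CPT1, Slc25a20, the carnitine-acylcarnitine translocase of the inner membrane, had -0.41 ± 0.15 (limma adjusted p = 0.10), and Cpt2, which rebuilds the acyl-CoA in the matrix, -0.22 ± 0.10 (adjusted p = 0.20). Both had overlapping groups. Crat and Crot, the carnitine acetyl- and octanoyltransferases that export short acyl groups from mitochondria and peroxisomes, had 0.45 ± 0.17 (adjusted p = 0.14) and 0.13 ± 0.10 (adjusted p = 0.50). For Crat the other 2 probe sets had -0.25 and -0.21, so its sign was not shared.

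None of the 17 genes for the mitochondrial dehydrogenases, the later steps of the cycle and electron transfer passed the limma threshold. Of all genes tested 11.9% passed it. At an unadjusted p under 0.05 limma had 4 of the 17, where the share over all probe sets was 22.9%. The log2 differences of the 17 ran from -0.28 to 0.30 with a median of 0.0067. Acadvl, the very long chain dehydrogenase of the inner membrane, gave 1153.3, 1317.8 and 1061.1 in non-pregnant and 1226.8, 1365 and 1215.2 in pregnant islets. These values overlap, with a log2 difference of 0.11 ± 0.10 (95% interval -0.10 to 0.32; adjusted p = 0.56). Acadm, the medium chain enzyme whose deficiency is a common inherited defect, gave 1475.6, 1392.5 and 1586.1 against 1354, 1423.7 and 1231.5. Its groups overlapped too, at -0.15 ± 0.09 (-0.34 to 0.04; adjusted p = 0.33).

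The other dehydrogenases split in sign. Acadl, the long chain enzyme, had -0.22 ± 0.08 (limma adjusted p = 0.12), with all 3 pregnant arrays below the non-pregnant ones, and Acads, the short chain enzyme, -0.26 ± 0.13 (adjusted p = 0.26). Acadsb, which also serves isoleucine breakdown, had 0.30 ± 0.10 (adjusted p = 0.096) and Acad11 0.26 ± 0.09 (adjusted p = 0.12), each with all 3 pregnant arrays above the non-pregnant ones. Acad9, which also helps to assemble respiratory complex I, had -0.0028 ± 0.13 (-0.31 ± 0.11 in another probe set) and the dim Acad10 0.17 ± 0.23.

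The trifunctional protein, which carries out the last 3 steps on long chains, did not pass in either subunit. Hadha, its hydratase and dehydrogenase subunit, gave 1302.9, 1216.2 and 1320.4 in non-pregnant and 1257.2, 1259.9 and 1357.5 in pregnant islets. The groups overlapped and the log2 difference was 0.01 ± 0.08 (95% interval -0.16 to 0.19). Hadhb, the thiolase subunit read from the same head-to-head promoter shown above, had 0.01 ± 0.09 (-0.19 to 0.20), and its other bright probe set also had 0.01 ± 0.06.

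Hadh, the short-chain hydroxyacyl-CoA dehydrogenase with a role in insulin secretion, did not pass. Its signals were 39561.4, 36991 and 36422.9 in non-pregnant and 38647, 40000.8 and 40090.2 in pregnant islets. The groups overlapped, with a log2 difference of 0.07 ± 0.05 (95% interval -0.03 to 0.18; limma adjusted p = 0.42). Another Hadh probe set, at 20735 to 22232.4, had -0.05 ± 0.05. Echs1, the short-chain enoyl-CoA hydratase, had -0.11 ± 0.07, and Acat1, the thiolase of ketone and isoleucine metabolism, 0.0041 ± 0.07. Acaa2, the mitochondrial thiolase of medium chains, had -0.28 ± 0.11 (adjusted p = 0.14) in its brightest probe set, and another of its 3 probe sets fell (-0.50 ± 0.14, adjusted p = 0.048).

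The electron transfer genes did not pass: Etfa and Etfb, the flavoprotein subunits, had -0.02 ± 0.08 (95% interval -0.19 to 0.15) and 0.14 ± 0.08 (-0.04 to 0.33), and Etfdh, the oxidoreductase that hands the electrons to ubiquinone, had 0.04 ± 0.07 (-0.13 to 0.20). None of the 3 had an unadjusted p under 0.05 in limma.

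Among the auxiliary enzymes, which move or remove double bonds of unsaturated fatty acids, 1 of 4 fell. Eci2 encodes an enoyl-CoA isomerase found in peroxisomes and mitochondria. It gave 3236.5, 3309.4 and 3228.7 in non-pregnant and 2451.5, 2474.2 and 2374.2 in pregnant islets. Both groups were tight and well separated. Their means were 3258 ± 44.5 and 2433 ± 52.4 (ratio 0.747), with a log2 difference of -0.42 ± 0.06 (limma adjusted p = 0.0012), the smallest p among the members that fell, and it passed without any 1 array (adjusted p of up to 0.0086). The mitochondrial isomerase Eci1 had -0.02 ± 0.08, and the dienoyl-CoA reductases Decr1 (mitochondrial) and Decr2 (peroxisomal) had 0.12 ± 0.09 and 0.01 ± 0.11.

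The regulators were dim. Pparg encodes PPAR gamma, a lipid-activated nuclear receptor best known from adipocytes. Its signals were 119.5, 67.6 and 78.2 in non-pregnant and 179.9, 218.4 and 144.2 in pregnant islets. All pregnant arrays were above all non-pregnant ones, but the spread within the groups was wide. The log2 difference of 0.93 ± 0.25 (limma adjusted p = 0.035) did not pass without non-pregnant replicate 2 or 3 (0.78 and 0.87, adjusted p = 0.10 and 0.091), without pregnant replicate 1 or 2 (0.92 and 0.79, adjusted p = 0.11 and 0.14) or with no filter (0.095). The summed signal of the 3 adipocyte markers on the array, Adipoq, Lep and Cidec, ran from 28.9 to 51.6 on the non-pregnant arrays and from 15.3 to 38.8 on the pregnant ones, with single signals of 2.1 to 40.2. These adipocyte markers were too dim to test. Of 5 macrophage and lymphocyte markers tested, none passed the limma threshold (1 at an unadjusted p under 0.05). That marker, Csf1r, had -0.28 ± 0.09 (limma adjusted p = 0.068), with all 3 pregnant arrays below the non-pregnant ones. Which cells gave the Pparg signal was not tested.

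Ppara, the receptor that drives these genes in liver, was too dim to test, at 49.9, 46.3 and 12.5 in non-pregnant and 36.6, 45.7 and 59.1 in pregnant islets in the brightest of its 3 probe sets. These values overlap each other and reach down into the range of the bacterial controls. Ppargc1a, the coactivator of mitochondrial genes, gave 81.7, 181.3 and 146.5 against 109.7, 115.9 and 86.3. The groups overlapped and the log2 difference was imprecise, at -0.30 ± 0.27 (95% interval -0.89 to 0.30; limma adjusted p = 0.59), with a value of -0.08 without non-pregnant replicate 2 and -0.59 without non-pregnant replicate 1.

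The calls other than that of Ehhadh were all lost under each of 2 alternatives. Without the trend in the variance model the limma adjusted p was 0.054 for Eci2, 0.056 for Cpt1a, 0.091 for Pex11a, 0.095 for Pparg and 0.21 for Abcd3. With the acinar marker level as a covariate the log2 differences were -0.47, -0.55, -0.71, 1.16 and -0.38 in the same order, with adjusted p-values of 0.067, 0.12, 0.052, 0.25 and 0.43. The covariate itself ran from -0.12 to 0.87 on the non-pregnant arrays and from -0.90 to -0.25 on the pregnant ones, without overlap. This fit can therefore hardly tell it apart from pregnancy, and it also leaves fewer degrees of freedom. Calls were fewer over the whole array in both settings. Over all probe sets 329 rose and 152 fell with the covariate, and 393 rose and 210 fell without the variance trend. In the main setting 1294 rose and 1293 fell. For 4 of the 5 the difference was larger with the covariate than without, and for Abcd3 it was slightly smaller.

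**Figure D3:**
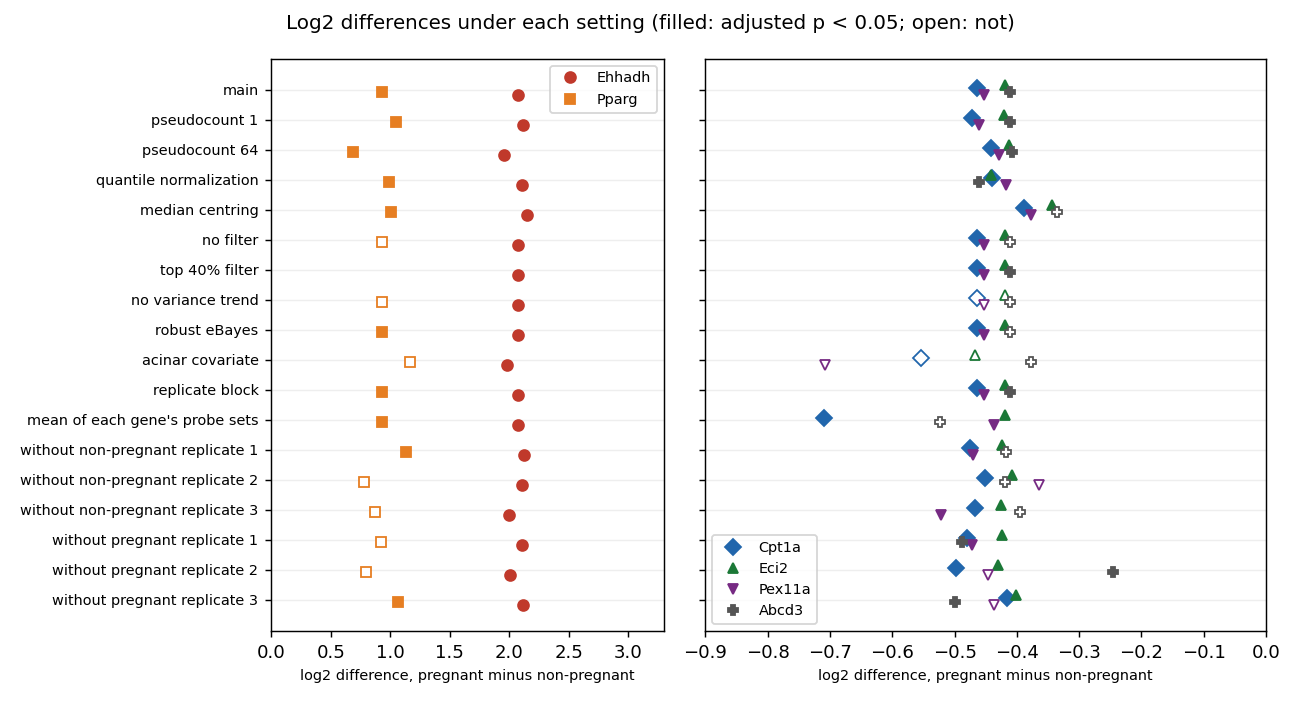
Log2 difference (x axes) of the 6 genes past the threshold as fitted (top row) and under up to 17 alternatives; filled symbols passed a limma adjusted p of 0.05 and open symbols did not. Ehhadh is filled in every row, and the other 5 are open without the variance trend and with the acinar covariate.

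Further genes around the pathway were read in lists drawn up by function. Their counts stand beside the 6.10% of all genes tested that rose and the 5.79% that fell. Of 14 other enzymes of fatty acid oxidation tested, 2 rose and 0 fell, with a median log2 difference of -0.07 (0.01 with median centring). Pecr, a peroxisomal enoyl-CoA reductase of chain elongation, rose from 842.5, 812.2 and 856.8 to 1910.5, 1368.8 and 1744.8 (0.97 ± 0.11, limma adjusted p = 2.1e-04). It passed under all 17 alternatives, as Ehhadh did, with an adjusted p of up to 0.035. Nudt19, a peroxisomal hydrolase of CoA, rose by 0.34 ± 0.08 (adjusted p = 0.025). Its call was lost without any 1 array other than non-pregnant replicate 3, with adjusted p-values of 0.061 to 0.094. The call was also lost with the acinar covariate (limma adjusted p = 0.24).

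Among 9 other peroxins tested, 1 rose and 0 fell. Pex11g, a second division factor of the Pex11 family, rose from 447.7, 497.1 and 417.9 to 713.2, 712.4 and 727 (log2 difference 0.64 ± 0.11, limma adjusted p = 0.0024). It thus moved opposite to Pex11a, under quantile normalization and median centring as well, and did not pass with the acinar covariate (0.49, adjusted p = 0.25).

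Of 12 genes for fatty acid uptake, binding and activation, 3 rose and 0 fell, with a median of -0.05 (0.03 with median centring). They were the acyl-CoA synthetases Acsl4 (0.52 ± 0.10, limma adjusted p = 0.0058) and Acsl5 (0.40 ± 0.08, adjusted p = 0.0069) and the binding protein Fabp5 (0.52 ± 0.08, adjusted p = 0.0017). With the acinar covariate their values were 0.36, 0.32 and 0.56 and none of the 3 passed (adjusted p = 0.38, 0.34 and 0.090). In ketone body metabolism Bdh1, which interconverts the ketone bodies, rose by 0.52 ± 0.11 (adjusted p = 0.0081), but with its probe sets averaged it had 0.21 (adjusted p = 0.51). Oxct1, which activates ketone bodies for oxidation, had 0.02 ± 0.06.

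Of 10 PPAR partners and other PPAR targets tested, none passed the limma threshold, where 11.9% of all genes tested did. At an unadjusted p under 0.05 limma had 4 of the 10, where the share over all probe sets was 22.9%. Of the 10 log2 differences 7 were negative, where 56.5% of all genes tested had a negative one. The median was -0.20, or -0.17 with quantile normalization and -0.13 with median centring. Pdk4, the kinase that shuts pyruvate dehydrogenase, had -0.28 ± 0.12 (adjusted p = 0.17), the lipid droplet coat protein Plin2 -0.44 ± 0.16 (adjusted p = 0.12) and the lipase inhibitor Angptl4 -0.60 ± 0.34 (adjusted p = 0.33).

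For comparison, in the pyruvate dehydrogenase and TCA cycle list 4 of 21 genes rose and 0 fell. The median was 0.10 (0.07 with quantile normalization and 0.17 with median centring). In this list 18 log2 differences were positive and 3 negative, where 56.5% of all genes tested had a negative one. Suclg1, a succinyl-CoA ligase subunit, had the smallest p (0.43 ± 0.06, limma adjusted p = 5.9e-04, and 0.057 without the variance trend). The others were Mdh2, malate dehydrogenase (0.23 ± 0.05, adjusted p = 0.016), the isocitrate dehydrogenase subunit Idh3a (0.27 ± 0.08, adjusted p = 0.042) and pyruvate carboxylase, Pcx (0.27 ± 0.08, adjusted p = 0.047). These 3 calls were lost without the variance trend (adjusted p of 0.19, 0.19 and 0.14) and with the acinar covariate (0.34, 0.12 and 0.53), and that of Pcx also without any 1 array (0.054 to 0.17). Idh3a kept its call without non-pregnant replicate 3 alone of the 6 arrays and otherwise had adjusted p-values of 0.075 to 0.14, and Mdh2 lost it without pregnant replicate 1 or 2 (0.075 and 0.066). In fatty acid synthesis and desaturation 1 of 14 rose and 3 fell, with a median of -0.11 (-0.10 with quantile normalization and -0.03 with median centring, where 7 were positive and 7 negative). The stearoyl-CoA desaturase Scd1 fell the most of the list, by 1.59 ± 0.20 (limma adjusted p = 4.4e-04), and passed under all 17 alternatives. Its relative Scd2 fell by 0.43 ± 0.07 (adjusted p = 0.0022; 0.18 with its probe sets averaged) and Mlxipl, the glucose-responsive factor ChREBP, by 0.63 ± 0.11 (adjusted p = 0.0037). The desaturase Fads1 rose by 0.66 ± 0.08 (adjusted p = 2.3e-04), but with its probe sets averaged it had 0.26 (adjusted p = 0.42). With the acinar covariate Scd2, Mlxipl and Fads1 did not pass (adjusted p = 0.26, 0.43 and 0.065). Acaca, which makes the malonyl-CoA that inhibits CPT1, had -0.07 ± 0.11. The difference between these lists and the fatty acid oxidation genes was not tested.

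**Figure D4:**
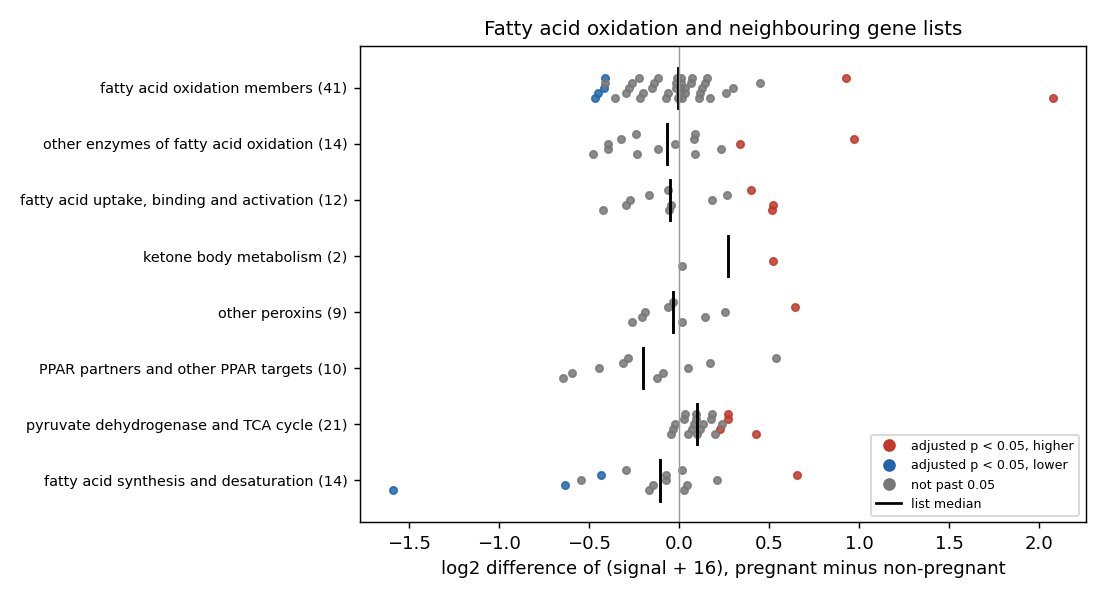
Log2 difference between pregnant and non-pregnant islets (x axis) for every tested gene of 8 lists (rows, with the number of genes); colours give the limma call at an adjusted p of 0.05 and black bars the list medians. The fatty acid oxidation genes centre on -0.0028 with Ehhadh at 2.08, and the TCA cycle list is centred on 0.10.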

How the data were processed

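The authors deposited 1 linear intensity for each probe set of each array. The submitters' processing notes name MAS5; its version is not given here. Of 45101 probe sets, 64 controls were left out. Values were taken as log2(signal + 16) with no further normalization, and the top 60% by mean over the 6 arrays, a signal of about 50.5, were tested (27022). The platform annotation gave 34958 probe sets a single symbol, 932 several and 9211 none. For a gene with several, the one brightest on average was used. The comparison was run in R 4.3.3 with limma 3.58.1 (lmFit, eBayes with a variance trend), 2-sided, Benjamini-Hochberg adjusted over all probe sets tested, with 4 residual degrees of freedom; the fit was tested on simulated data. Errors are limma's standard errors for log2 differences and SD for signals, and the number of arrays limits the precision.

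The members, the lists and the genes named from them were chosen with earlier results of these data known. Values on every array are given for Ehhadh, members past the threshold and 8 members taken by role, of which Cpt1a also passed; up to 4 genes past the threshold are named from each other list. A group against group exact test could not go below p = 0.10, so none was used. Alternatives were pseudocounts of 1 and 64, quantile normalization, median centring, no filter and a top 40% filter, no variance trend, robust eBayes, the median acinar marker level as a covariate, the replicate number as a block, probe sets averaged per gene, and each array left out. Motifs were searched in RefSeq promoters; protein sequences were not analysed here. Plots used Python 3.11.15 and matplotlib 3.10.9.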

Additional observations from a re-analysis of the deposited data

How the results depend on the processing

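Ehhadh kept its direction and its call in all 17 alternatives. The number of members that rose, 2 in the main setting, was 1 with no filter, with the top 40% filter (where Pparg was not tested), without the variance trend and with the acinar covariate, and 1 to 3 with any 1 array left out. The number that fell, 4, was 0 without the variance trend and with the acinar covariate, and 2 to 4 with any 1 array left out (2 without non-pregnant replicate 2). The median log2 difference of the members, -0.0028, was 0.073 with median centring, -0.092 with the acinar covariate and -0.037 to 0.0096 with any 1 array left out. Among genes that did not pass, Acadvl had -0.11 with the acinar covariate, and Hadha -0.023 to 0.036 with any 1 array left out. Idh3a of the TCA list had -0.054 with its probe sets averaged, against 0.27 in its brightest; the cause was not tested. Same-numbered arrays did not deviate together (correlations of -0.03, -0.07 and 0.03). The labels do not say whether the numbers pair the arrays, and these correlations cannot settle it. With the replicate number as a block, 2 members rose and 4 fell, as without it, and Ehhadh had 2.08 (limma adjusted p = 8.4e-07). Alternatives for the genes outside the members were chosen after seeing the data. Ppara, whose signals reach into the range of the bacterial controls, is limited by signal over background.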

Other observations

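Fabp1, the liver-type fatty acid binding protein and a known PPAR target, was too dim on average to be tested but stood out on 1 array, which was noticed after its values were seen. Its signal was 472.9 on non-pregnant replicate 2, and 29.1, 2.5, 6.3, 26.5 and 12.4 on the other arrays, all within the range of the bacterial controls. The same array had the lowest summed acinar marker signal of the non-pregnant group, 146701 against 284160 and 282409. Scd1, a fatty acid desaturase that fell in pregnancy, was also highest on it, at 809.8 against 522.3 and 429.8, while Ehhadh, at 432.4, lay between the other non-pregnant arrays.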
